A study of Mus musculus with 11 samples.

Results

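The lysyl oxidase family comprises 5 genes, Lox, Loxl1, Loxl2, Loxl3 and Loxl4, which were taken by gene symbol from the 47643 symbols of the expression table. All 5 were found, and all 5 passed the filter on low values, which kept 11979 genes with at least 1 RPKM in at least 2 libraries. RPKM is the read count divided by a length per gene and by the mapped reads of the library. The filter did not act through a single group, since each member was above 1 RPKM in each of the 11 libraries.

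Lysyl oxidases are secreted copper enzymes that oxidize lysine and hydroxylysine side chains of collagens and elastin to reactive aldehydes, which then condense into the covalent cross-links that give a matrix its stiffness. Lox and Loxl1 are made as proenzymes with a propeptide that is removed outside the cell, whereas Loxl2, Loxl3 and Loxl4 carry scavenger receptor domains in front of the same catalytic domain. In skin the family is known for collagen maturation in healing wounds and scars, and Loxl1 for the upkeep of elastic fibers.

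The libraries were made from live CD140a+ CD45- fibroblasts, with CD11b and F4/80 as further negative markers (and CD3 by the sample labels, though not by the study's methods), sorted from unwounded back skin (normal skin, NS) or from excisional wounds 5 days after injury (5dw). The activin mice (K14-Act, here Act) carried a human INHBA transgene driven by the keratin 14 promoter, which is used to direct expression to keratinocytes, and their wild-type littermates (WT) served as controls. All mice were of a mixed background, 50% CD-1 and 50% C57Bl/6, and 9 to 12 weeks old. Each library pooled RNA from 3 mice, with 3 libraries each for WT NS, Act NS and WT 5dw, and 2 for Act 5dw, where the study had excluded the second library. The design answers which members differ between wound and normal skin fibroblasts in each genotype, and which differ between Act and WT fibroblasts of the same tissue. The RNA input was 100 ng for NS and 200 ng for 5dw, so this step cannot be told apart from wounding. In bulk RNA, fewer cells of a type and less RNA per cell cannot be told apart either.

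The 5 genes lie on 5 chromosomes (GRCm38, GENCODE M21). Lox, whose position is given with its values, has 7 exons and 411 codons. Loxl1 is on chromosome 9 (58287738 to 58313186, minus strand), also with 7 exons, and has 607 codons. The 3 members with scavenger receptor domains are longer. Loxl2 is on chromosome 14 (69609068 to 69695834, plus strand; 14 exons, 776 codons), Loxl3 on chromosome 6 (83034173 to 83052562, plus strand; 14 exons, 754 codons) and Loxl4 on chromosome 19 (42593982 to 42612813, minus strand; 15 exons, 758 codons).

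The copper-binding stretch of the catalytic domain is shown as a motif that the members share. It spans 11 codons (33 bases of coding sequence, each time across the junction of 2 exons) and holds 4 histidine codons, printed in capitals, which include those for the histidines that hold the copper. The sequences are from GENCODE M21 transcripts on GRCm38, 5′ to 3′ along the gene's strand. They lie at codons 476 to 486 of Loxl1 (chr9:58293720-58294381, minus), 622 to 632 of Loxl2 (chr14:69682316-69689037, plus), 602 to 612 of Loxl3 (chr6:83049995-83050125, plus) and 607 to 617 of Loxl4 (chr19:42598807-42599899, minus).
Loxl1: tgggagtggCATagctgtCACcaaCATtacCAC
Loxl2: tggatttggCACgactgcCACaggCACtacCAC
Loxl3: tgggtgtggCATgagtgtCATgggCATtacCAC
Loxl4: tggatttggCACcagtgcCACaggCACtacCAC
Loxl2 and Loxl4 were identical at 31 of the 33 bases (93.9%) and at 10 of 11 amino acids, although they moved in opposite directions in wounds, as described next. The other pairs of these 4 shared between 63.6% and 75.8% of the bases and 8 of the 11 amino acids. These 8 were the same in all 4 members, so that count does not tell the pairs apart. The stretch was chosen as a shared motif, so it does not measure how related the whole genes are.

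Wound fibroblasts had far more Lox, and more Loxl2 and Loxl3, than normal skin fibroblasts, whereas they had less Loxl4, and Loxl1 did not pass the test. In WT mice the RPKM of Lox was 4.90-fold higher in 5dw, that of Loxl3 2.55-fold and that of Loxl2 2.12-fold, and that of Loxl4 was 4.96-fold lower (fold changes of RPKM + 0.5, n = 3 and 3). The same 4 members passed the test in Act mice, in the same directions. Thus, 3 of 5 members were up-regulated and 1 was down-regulated in each genotype, against 9.45% of all tested genes up-regulated and 48.8% down-regulated in WT mice, and 9.04% and 36.5% in Act mice (limma, Benjamini-Hochberg adjusted p under 0.05). The median log2FC of the 5 members was 1.09 in WT and 1.16 in Act mice, compared to −0.40 and −0.31 over all tested genes.

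**Figure D1:**
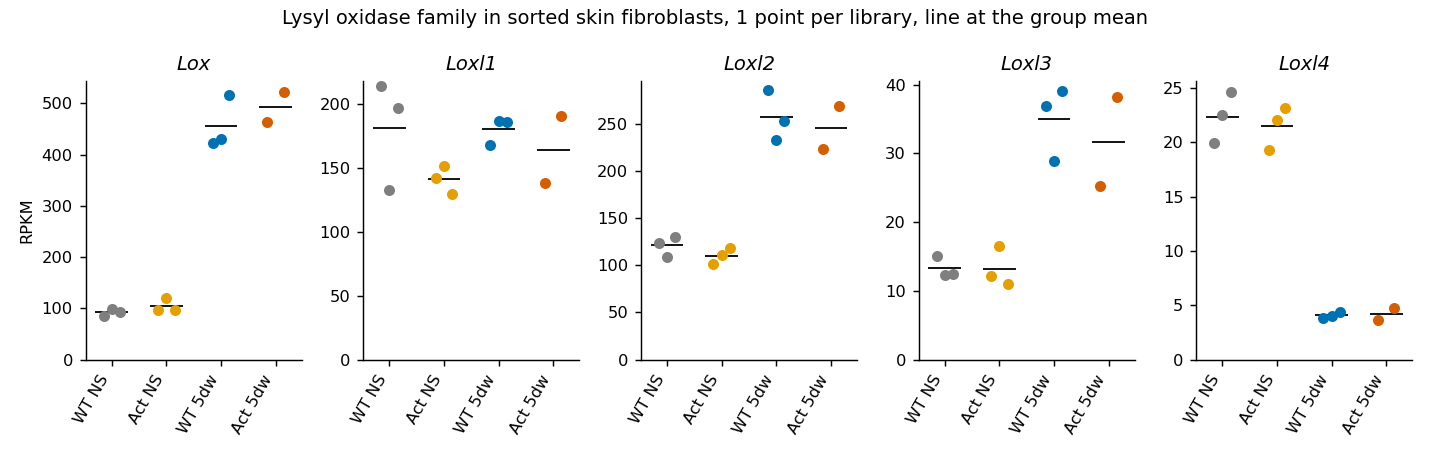
RPKM of each family member (y axis from 0, a separate scale per panel) in the 4 groups, with 1 point per library and a line at the group mean. For Lox, Loxl2 and Loxl3 the 5dw points sit above all NS points, for Loxl4 they sit below them at 3.62 to 4.80 RPKM, and for Loxl1 the tissues overlap.

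Lox, which acts on fibrillar collagens and on elastin, had the largest rise of the family. The gene lies on chromosome 18 (52516067 to 52529867, minus strand). Its RPKM was 85.7, 98.5 and 93.6 in WT NS, and 97.6, 120.4 and 97.0 in Act NS. In wounds it was 423, 431 and 517 in WT mice, and 463 and 522 in Act mice. The lowest wound library was thus far above the highest NS library. All 5dw libraries were above all NS libraries for 3 members and below them for 1, compared to 8.45% and 38.9% of all tested genes. The log2FC was 2.29 ± 0.14 (SE; 95% interval 1.98 to 2.60) in WT mice, with an adjusted p of 1.23e-06, the 87th largest of the 11979 tested genes. In Act mice it was 2.23 ± 0.16, with an adjusted p of 4.98e-06. By mean RPKM, Lox ranked 395th among the tested genes in NS and 74th in 5dw.

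Loxl2, which is known for its action on collagen IV of basement membranes and on fibrillar collagen, rose less. Its RPKM was 124, 109 and 130.2 in WT NS, 101, 111 and 118 in Act NS, 286, 233 and 253 in WT wounds, and 223 and 269 in Act wounds. Here too, all 5 wound libraries were above all 6 NS libraries. The log2FC was 1.09 ± 0.14 (adjusted p = 0.000121) in WT and 1.16 ± 0.16 (adjusted p = 0.000249) in Act mice. The level of Loxl2 is less certain than that of the other members, since 91.5% of the 100-base stretches of its coding sequence, and 43.5% of its whole transcript, also occur in other annotated genes (Gm16867, Gm21451, Gm27177 and Gm45509). No source used here says where the study counted a read with matches in more than 1 gene. The summed RPKM of Gm16867 and Gm21451 was 0.198% to 1.06% of that of Loxl2. Gm27177, which overlaps Loxl2 on the opposite strand, was outside this sum. It was at 0.676 to 1.1 RPKM in NS and at 1.24 to 2.38 in 5dw. The level of Gm45509 is not given here.

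Loxl3, a member with oxidase activity toward collagen and elastin, was low in normal skin and higher in wounds. It had 15.1, 12.3 and 12.5 RPKM in WT NS, 12.1, 16.5 and 11 in Act NS, 36.9, 28.9 and 39.1 in WT wounds, and 25.2 and 38.2 in Act wounds. The tissues did not overlap, but the 2 Act 5dw libraries were far apart, with an SD of 28.9% of the mean against 11.8% to 22% in the other groups. The rise was 1.35 ± 0.20 on the log2 scale (adjusted p = 0.00028) in WT and 1.22 ± 0.22 (adjusted p = 0.00147) in Act mice. The gene overlaps Htra2 on the opposite strand over 535 exonic bases. Htra2 had 5.06 to 9.89 RPKM in these libraries, and no source used here says whether reads were counted by strand.

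Loxl4 went the opposite way. In NS it was above Loxl3, with 19.9, 22.5 and 24.6 RPKM in WT and 19.3, 22.1 and 23.2 in Act mice. In wounds it was the lowest of the family, with 3.83, 4.06 and 4.38 RPKM in WT mice and 3.62 and 4.80 in Act mice. The wound libraries were all well below the NS libraries. The log2FC was −2.31 ± 0.14 (adjusted p = 1e-06) in WT and −2.24 ± 0.15 (adjusted p = 4.13e-06) in Act mice. In WT mice this was the 266th most negative value of all tested genes, and by mean RPKM Loxl4 went from rank 1676 in NS to rank 5408 in 5dw. These values rest on 313 to 3082 reads per library for Loxl4, the fewest of the family, compared to 8840 to 96491 for Lox.

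Loxl1, the member that binds elastic fibers, did not pass the test. It had 214, 133 and 197 RPKM in WT NS, 142, 152 and 129.5 in Act NS, 168, 187 and 186 in WT wounds, and 138 and 191 in Act wounds. The second WT NS library was far below the other two, and the ranges of the tissues overlapped. The log2FC was 0.02 ± 0.19 (95% interval −0.40 to 0.44, adjusted p = 0.932) in WT and 0.20 ± 0.21 (−0.27 to 0.67, adjusted p = 0.455) in Act mice. These values depend on the scaling of the libraries. When libraries were scaled by the median ratio over genes, the median log2FC of all genes moved from −0.40 to 0.01 in WT mice, and the value of Loxl1 became 0.50 (adjusted p = 0.056) in WT and 0.57 (adjusted p = 0.0548) in Act mice. Under this scaling Lox had a log2FC of 2.77 and 2.60, Loxl2 of 1.56 and 1.53, Loxl3 of 1.82 and 1.58, and Loxl4 of −1.86 and −1.89, in WT and Act mice, and each of these calls remained. It also moved the split over all genes, from 1132 up-regulated of 6978 called to 2802 of 5344 in WT mice, and from 1083 of 5459 to 2430 of 4877 in Act mice.

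**Figure D2:**
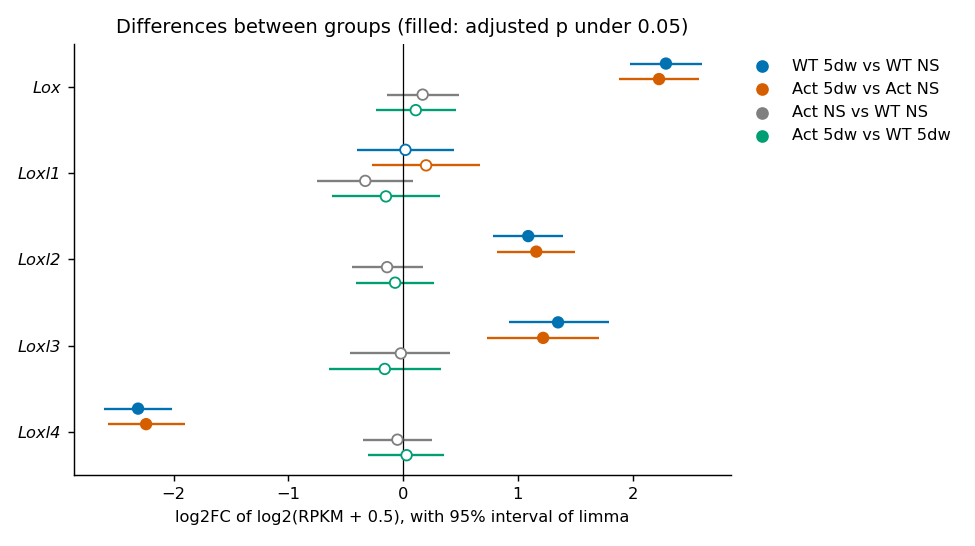
Log2FC of log2(RPKM + 0.5) for each member (x axis) with its 95% interval from limma, in the comparisons of wound with normal skin and of Act with WT. Filled points passed an adjusted p of 0.05. Lox, Loxl2 and Loxl3 lie to the right of 0 and Loxl4 to the left in both wound comparisons, and all intervals of the Act with WT comparisons include 0.

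No member differed detectably between genotypes. In NS, the log2FC of Act over WT was 0.17 for Lox (95% interval −0.14 to 0.49), −0.33 for Loxl1 (−0.75 to 0.09), −0.14 for Loxl2 (−0.45 to 0.17), −0.02 for Loxl3 (−0.46 to 0.41) and −0.05 for Loxl4 (−0.35 to 0.25), with limma adjusted p-values of 0.701 to 0.975. In 5dw, Lox differed by 0.11 (−0.24 to 0.46), Loxl1 by −0.15 (−0.62 to 0.32), Loxl2 by −0.07 (−0.41 to 0.27), Loxl3 by −0.16 (−0.65 to 0.33) and Loxl4 by 0.03 (−0.31 to 0.36), each with an adjusted p of 1. The Act and WT libraries of each member overlapped in both tissues, compared to 8.97% of all tested genes without overlap in NS and 23% in 5dw. Over all genes, 2 (0.0167%) were called in NS and 4 (0.0334%) in 5dw, with 824 and 386 at an unadjusted p under 0.05.

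The change upon wounding was also compared between the genotypes. The difference between the Act and WT wound responses was −0.06 for Lox (95% interval −0.53 to 0.40), 0.18 for Loxl1 (−0.45 to 0.81), 0.07 for Loxl2 (−0.39 to 0.53), −0.13 for Loxl3 (−0.79 to 0.52) and 0.08 for Loxl4 (−0.37 to 0.52) on the log2 scale, each with a limma adjusted p of 0.999. No gene passed this test, and 400 had an unadjusted p under 0.05. The intervals are wide, and for Lox in wounds they still allow Act levels from 0.849-fold to 1.37-fold of WT. Mouse Inhba, the activin subunit gene, was at 3.4 to 6.93 RPKM in WT NS, 36.3 to 91.1 in Act NS, 15.8 to 24 in WT wounds, and 26.2 and 50.2 in Act wounds. It was called higher in Act than in WT NS (log2FC 3.30, limma adjusted p = 0.0128), but it was not called in wounds (0.86, adjusted p = 1). The transgene is human, and what share of these reads comes from it was not tested.

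The order of the levels within the family changed with wounding. RPKM is a level per length, so the members can be set beside each other, but the result depends on the length used. For Loxl4 it was 4213 bases, where its coding transcript has 2617. For Lox it was 4810 bases, where its coding transcript has 4741. The place of Loxl4, its shares and its ratios to Lox carry this limit. In WT NS the order was Loxl1, Loxl2, Lox, Loxl4 and Loxl3, and no neighbors overlapped, although the lowest Loxl1 value (133) was just above the highest Loxl2 value (130.2). Act NS had the same order by mean, but Loxl2 and Lox overlapped, with Lox above Loxl2 in the second library. In 5dw of both genotypes the order was Lox, Loxl2, Loxl1, Loxl3 and Loxl4, without overlap of neighbors.

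The summed RPKM of the 5 members was 372 to 459 in NS and 852 to 1026 in 5dw. Lox made up 18.7% to 28.5% of this sum in NS and 46.1% to 54.3% in 5dw. Loxl1 went from 34.2% to 46.7% of the sum in NS to 16.2% to 21.2% in wounds, although its own level overlapped between the tissues. The shares of Loxl2 (26.2% to 31.1% in NS, 25.3% to 31.2% in 5dw) and Loxl3 (2.74% to 3.92% and 2.96% to 4.02%) overlapped. Loxl4 supplied 4.33% to 6.14% of the sum in NS, and 0.417% to 0.468% in 5dw. For each 1000 RPKM of Lox, there were 184 to 263 RPKM of Loxl4 in NS fibroblasts and 7.82 to 9.42 in wound fibroblasts.

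**Figure D3:**
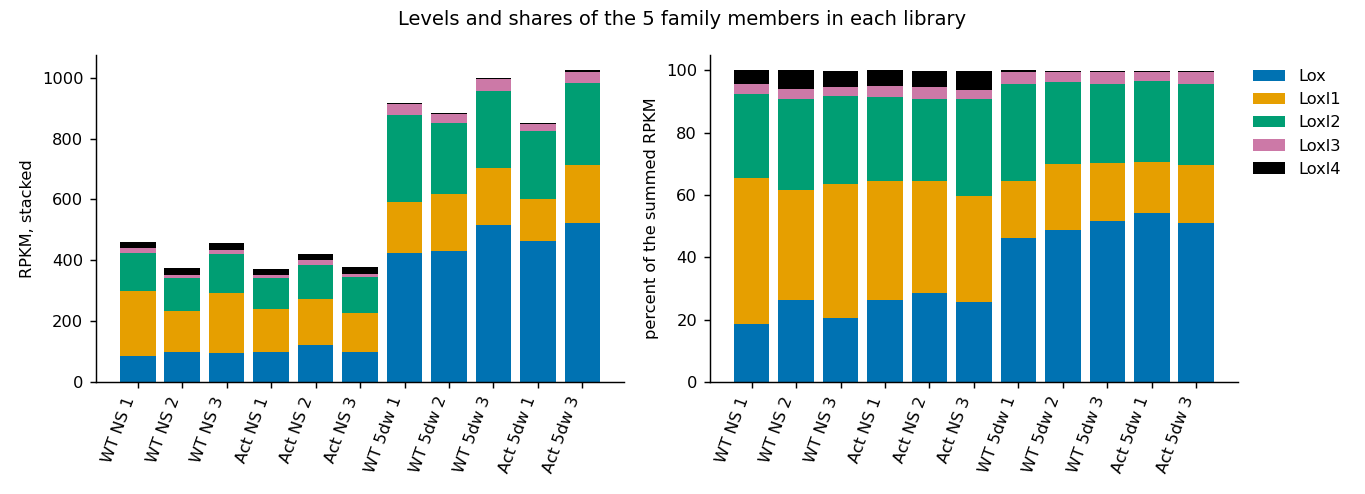
Stacked RPKM of the 5 members (left, y axis in RPKM) and their percent of the summed RPKM (right) in each of the 11 libraries, named by group and replicate. The summed level is 372 to 459 in NS and 852 to 1026 in 5dw, and the Lox share is 18.7% to 28.5% in NS and 46.1% to 54.3% in 5dw.

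Most fibrillar collagens, which are substrates of these enzymes, were higher in wounds. Of 11 tested fibrillar collagen and elastin genes, 8 were up-regulated in both genotypes and none was down-regulated, compared to 9.45% (WT) and 9.04% (Act) of all tested genes up-regulated and 48.8% and 36.5% down-regulated. The median log2FC of this list was 1.51 in WT and 1.52 in Act mice. Col1a1, a chain of collagen I, rose by 1.51 and 1.50 on the log2 scale in WT and Act mice, and Col3a1, the chain of collagen III, by 1.66 and 1.83. The largest mean changes in this list were those of Col24a1 (2.97 and 3.04), Col27a1 (1.93 and 1.69) and Col5a1 (1.81 and 1.91). Eln, the elastin gene, did not pass the test, with −0.42 in WT (adjusted p = 0.248) and −0.62 in Act mice (adjusted p = 0.154).

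Collagen IV, the basement membrane collagen, went the other way. Of 5 tested chains, 4 were down-regulated in both genotypes and none was up-regulated, with a median log2FC of −1.61 in WT and −2.19 in Act mice, where 48.8% and 36.5% of all tested genes were down-regulated. Under median-ratio scaling these 4 calls remained, and Col4a5, the other tested chain, was called higher (0.65, adjusted p = 0.015, in WT and 0.76, adjusted p = 0.013, in Act mice). Col4a1 fell by 1.61 and 2.48 on the log2 scale, Col4a4 by 1.98 and 2.12, and Col4a3 by 1.84 and 2.34.

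The enzyme transcripts were then set against these substrates in each library. Lox had 18.2 to 54.3 RPKM per 1000 RPKM of Col1a1 in NS and 42.2 to 59.7 in 5dw, which overlap. The values were 28.6 to 57.4 and 53.5 to 73.7 per 1000 RPKM of Col3a1, and they also overlapped. Per 1000 RPKM of Col1a2, the other collagen I chain, the tissues were apart, with 35.2 to 87.9 in NS and 97.9 to 129 in 5dw. Loxl2 per 1000 RPKM of Col1a1 was 26.3 to 52.1 in NS and 26.2 to 28.7 in 5dw. By contrast, Loxl2 was at 409 to 638 RPKM per 1000 RPKM of Col4a1 in NS and at 3168 to 6245 in 5dw. Lox per 1000 RPKM of Eln was 404 to 1321 in NS and 4134 to 5843 in 5dw, without overlap. Loxl1 per 1000 RPKM of Eln was 812 to 1781 in NS and 1597 to 2101 in 5dw, with overlap. These ratios compare transcripts, not proteins, and were not tested.

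**Figure D4:**
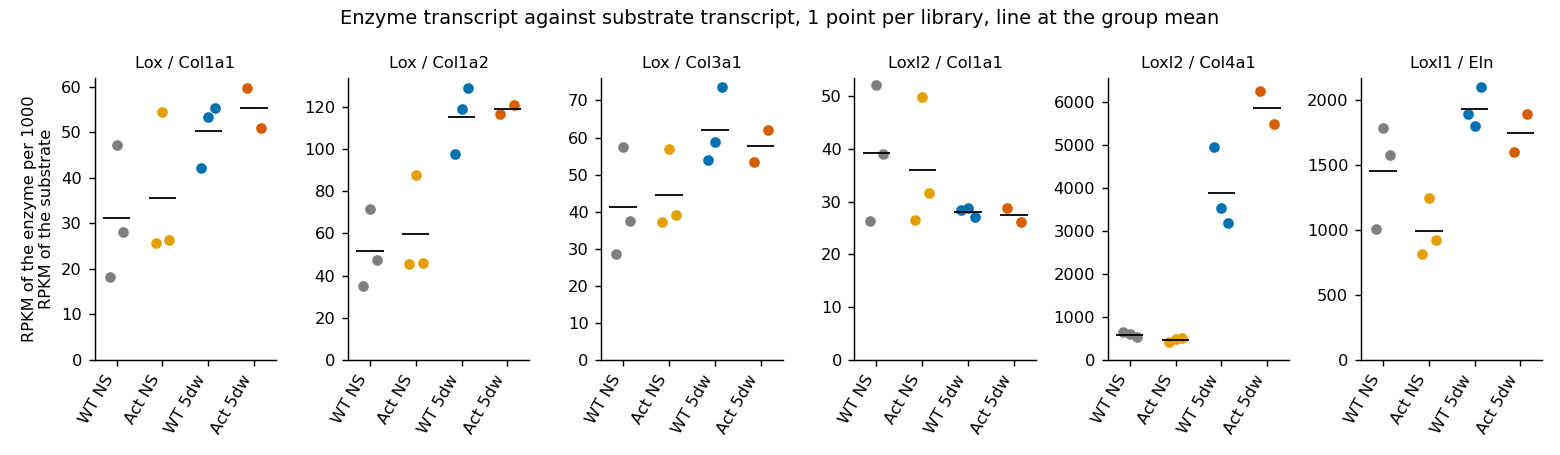
RPKM of an enzyme per 1000 RPKM of a substrate gene (y axis from 0, a separate scale per panel) in the 4 groups, with 1 point per library and a line at the group mean. The ratios of Loxl2 to Col4a1 (409 to 638 in NS, 3168 to 6245 in 5dw) and of Lox to Col1a2 (35.2 to 87.9 and 97.9 to 129) do not overlap between tissues, and the other 4 ratios shown do.

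Genes that prepare the enzymes or the collagen for cross-linking were then examined by role. The counts that follow stand against 9.45% of all tested genes up-regulated and 48.8% down-regulated in WT mice, and 9.04% and 36.5% in Act mice. Of 7 tested proteases and enhancers that process the proenzymes or procollagens, 4 were up-regulated and 2 down-regulated in WT mice (median log2FC 0.51), and 3 and 2 in Act mice (0.27). Under median-ratio scaling it was 4 and 2 in WT (median 0.98), and 4 and 2 in Act mice (0.64). Bmp1, the protease that removes the propeptide of Lox, rose by 1.19 and 1.25 on the log2 scale. Its relative Tll1 fell by 1.80 and 1.45, and Pcolce2, an enhancer of procollagen processing, by 4.19 and 4.28. The members that moved in this list hence did not share a direction.

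The lysyl hydroxylases, which hydroxylate collagen lysines and thereby set the chemical type of cross-link, and the proteins of their complex mostly moved together. Of 11 tested genes, 9 were up-regulated and 1 down-regulated in WT mice, and 10 and 1 in Act mice (all tested genes: 9.45% and 48.8% in WT, 9.04% and 36.5% in Act), with a median log2FC of 0.91 and 1.01. Plod2, which hydroxylates telopeptide lysines, had the largest change, with 2.32 ± 0.36 in WT (adjusted p = 0.000384) and 3.03 ± 0.40 in Act mice (adjusted p = 0.000222), and its RPKM was 6.15 to 21.7 in NS and 78.6 to 101 in 5dw. Fkbp10, a chaperone of this complex, rose by 1.64 and 1.78. The gene that was lower was Colgalt2, a collagen galactosyltransferase, which fell by 1.47 and 0.91.

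Among 7 tested matrix proteins known to bind lysyl oxidases, 3 were up-regulated and 2 down-regulated in WT mice (median 0.15), and 2 and 2 in Act mice (0.46), where the same shares of all tested genes apply (9.45% and 48.8% in WT, 9.04% and 36.5% in Act). Under median-ratio scaling it was 3 and 1 in WT (median 0.59), and 5 and 1 in Act mice (0.83). Efemp2 (fibulin-4), which tethers Lox to elastic fibers, rose by 1.75 and 1.62, and Postn (periostin), which supports activation of Lox by Bmp1, by 1.27 and 2.03. Tnxb, a tenascin, fell by 1.22 and 1.20. Fn1, the fibronectin gene, did not pass the test, with −0.21 (adjusted p = 0.349) in WT and 0.33 (adjusted p = 0.207) in Act mice, where it was called under median-ratio scaling (0.70, adjusted p = 0.00993).

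The enzymes need copper to be active. Of 8 tested genes of copper uptake, storage and delivery, none was up-regulated in either genotype, 4 were down-regulated in WT mice and 2 in Act mice, compared to 48.8% and 36.5% of all tested genes down-regulated. The median log2FC was −0.35 and −0.36, close to that of all genes. Slc31a2, a copper transporter, fell by 1.36 and 1.21, and the metalloreductase gene Steap3 by 1.06 and 1.08. Atp7a, the pump that loads copper into secreted cuproenzymes, fell by 0.62 in WT mice (adjusted p = 0.00388) and had a value of −0.25 in Act mice (adjusted p = 0.224). These counts depend on the scaling: by median ratio the list medians were 0.12 and 0.01, Atp7a was no longer called in WT mice (−0.24, adjusted p = 0.135), and the metallothionein gene Mt2 was called higher in WT mice (1.02, adjusted p = 0.0126) but not in Act mice (0.73, adjusted p = 0.0828). Ccs, a copper chaperone gene, moved from −0.31 (adjusted p = 0.0327) to 0.15 (adjusted p = 0.243) in WT mice.

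Other cross-linking enzymes were mixed. Of 5 tested genes, 2 were up-regulated and 2 down-regulated in each genotype, against 9.45% and 48.8% of all tested genes in WT and 9.04% and 36.5% in Act mice. The median log2FC was −0.75 in WT and −1.57 in Act mice, and under median-ratio scaling 1 gene was down-regulated in WT mice (median −0.36). Pxdn (peroxidasin), which forms sulfilimine bonds in collagen IV, rose by 0.81 and 1.09, and Qsox1, a sulfhydryl oxidase, by 0.85 and 0.78. F13a1, the catalytic subunit of coagulation factor XIII, fell by 2.52 and 2.03. Of the copper amine oxidases outside the family, Aoc3 rose by 1.91 and 1.41 and Aoc2 fell by 1.09 and 0.84. No gene of these lists was called between Act and WT fibroblasts in NS or in 5dw.

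**Figure D5:**
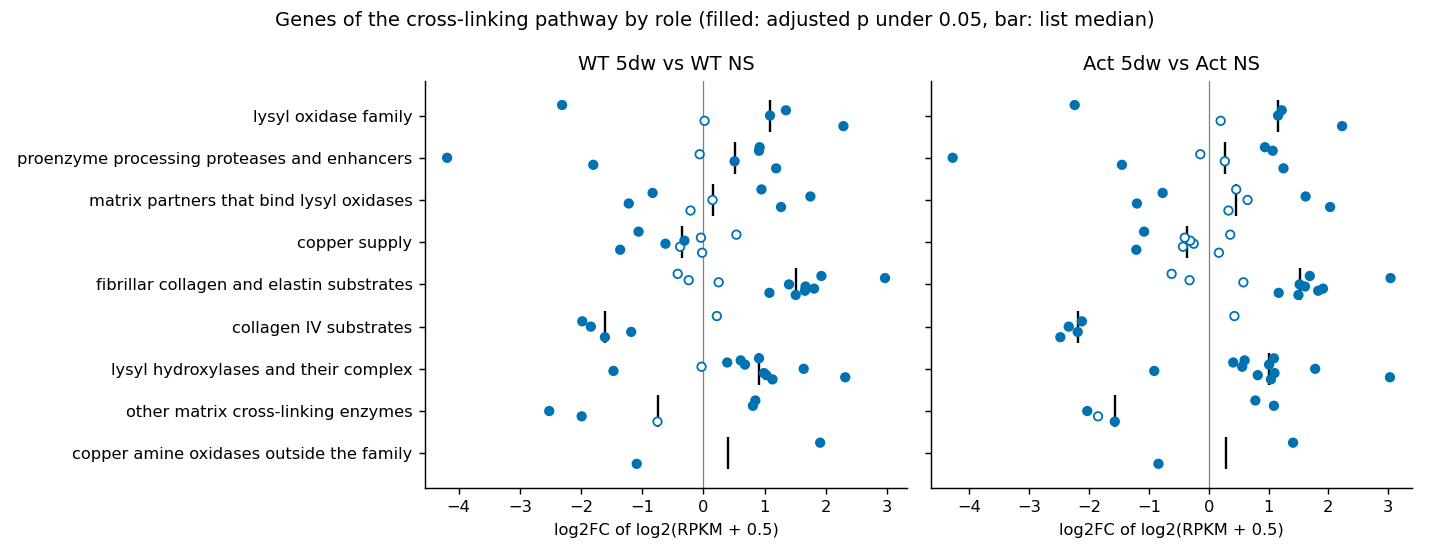
Log2FC of log2(RPKM + 0.5) (x axis) of the tested genes of each role in the cross-linking pathway (rows), for WT (left) and Act (right) wounds against normal skin. Each point is a gene, filled where the limma adjusted p was under 0.05, and the bar marks the list median, which is 1.51 in WT for fibrillar collagen and elastin genes and −1.61 for collagen IV genes.

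The genes with a pattern most like each member over the 11 libraries were named by the root mean square difference of centered log2 values. Nearest to Lox were Tnfsf11, the gene for the cytokine RANKL (0.116), Glis3 (0.160) and Rnf150 (0.182), where the median over all tested genes was 1.32. Nearest to Loxl2 were Colgalt1, the other collagen galactosyltransferase gene (0.0722), Pxylp1 (0.0754) and Bmp1 (0.0886), with a median of 0.772. For Loxl3 they were Mark1, Srpx2 and Gpbar1 (0.136 to 0.142, median 0.879), and for Loxl4 Usp2, the growth factor receptor gene Fgfr2 and Runx3 (0.153 to 0.194, median 0.988). Loxl1 lay nearest to Ier2, Dtd2 and Sh3gl1 (0.104 to 0.119, median 0.414), whose log2FC in wounds was 0.00 to 0.30. Within the family, Loxl2 and Loxl3 were the closest pair (0.210) and Lox and Loxl4 the farthest apart (2.26).

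Markers of other cell types were measured beside these results. Summed RPKM of 10 fibroblast markers was 12334 to 17932 in NS and 23576 to 26965 in 5dw. This list had no common direction: in WT mice 4 genes were called higher, of which Col1a1, Col1a2 and Col3a1 are substrate genes described above, 4 were called lower, and the median log2FC was 0.01. In Act mice 4 were higher and 3 lower, with a median of −0.28. Pdgfra, the gene for CD140a, was among the lower ones, at 49.8 to 65.3 RPKM in NS and 29.6 to 37.3 in 5dw. The 12 keratinocyte markers summed to 948 to 3776 RPKM in NS, with all 12 above 1 RPKM by median, and to 163 to 1333 in 5dw, with 8 above 1. In WT mice 8 of the 12 were called lower, the direction of Loxl4 and of 48.8% of all tested genes, and 1, Krt6a, was called higher (log2FC 3.10, adjusted p = 0.00272). In Act mice 9 were lower, against 36.5% of all tested genes, and none was higher. Krt14, the gene whose promoter drives the transgene, was itself found in the sorted libraries, at 192 to 493 RPKM in NS and 57.8 to 528 in 5dw, and was not called (adjusted p = 0.408 in WT and 0.198 in Act mice). The third WT 5dw library had a keratinocyte sum of 1333, above the 948 and 1027 of the first WT NS and first Act NS libraries. Its Loxl4 was at 4.38 RPKM against 19.9 and 19.3. These sums differed in make-up and are not directly comparable. Krt10 was at 31.9 RPKM in that wound library and at 297 and 359 in those NS libraries. Krt6a was at 265 in that wound library and at 8.35 and 22 in those NS libraries. Over the 6 NS libraries the keratinocyte sum varied 3.98-fold and Loxl4 1.27-fold. Within each group, however, Loxl4 rose in the order of the keratinocyte sum. In WT NS, sums of 948, 1615 and 1775 went with 19.9, 22.5 and 24.6 RPKM of Loxl4. In WT 5dw, sums of 163, 319 and 1333 went with 3.83, 4.06 and 4.38. Whether keratinocytes contribute to the Loxl4 values was not tested.

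Immune markers summed to 14.4 to 47.6 RPKM in NS and 65.1 to 117 in 5dw. Most of the sum in wounds was Cd3e, a T cell receptor complex gene, at 2.94 to 33.9 RPKM in NS and 55.5 to 105 in 5dw, and the sources differ on whether CD3 was a negative marker of the sort. Cd3e was the single immune marker called higher in wounds, the direction of Lox, Loxl2 and Loxl3, and Cd68, a macrophage gene, was at 6.16 to 12 RPKM in NS and 4.69 to 6.31 in 5dw and was called lower in Act wounds (log2FC −0.72, adjusted p = 0.0299) but not in WT wounds (adjusted p = 0.146). Of the 11 markers, 7 were under 1 RPKM in all libraries, among them Ptprc, the gene for CD45, at 0.00822 to 0.0498. The sums of the other lists were small in both tissues, with 24.1 to 34.7 in NS and 25.2 to 28.1 in 5dw for endothelial, 16.4 to 25.8 and 12.8 to 20.6 for pericyte and smooth muscle, 5.33 to 8.28 and 5.06 to 12.6 for adipocyte, 2.94 to 6.22 and 1.81 to 2.44 for skeletal muscle, and 5.89 to 11.5 and 1.26 to 1.90 for Schwann and melanocyte markers. No marker was at 0 in every library, and the part of these cells in the changes of the family was not tested.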

How the data were processed

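RNA was sequenced as poly-A selected, single-end 100-base reads, mapped to GRCm38 and summarized per gene symbol by the authors in CLC Genomics Workbench 12. The deposited values are RPKM, made by the authors; edgeR is named in the submitters' notes, but counts were not used here as a main measure because the table holds RPKM. Whole reads could be recovered for 99.8% of tested genes (tolerance 0.03 reads), giving 18649316 to 39702136 mapped reads per library. They were used only for depth and for an alternative with voom. The annotated exon length gave whole reads for 7367 tested genes, and another length was used for 4592. Lox (4810 bases used, 4778 annotated) and Loxl1 (3338 and 3297) are among the latter. Lox had 8840 to 96491 reads, Loxl1 8271 to 24233, Loxl2 10989 to 61460, Loxl3 1056 to 6973 and Loxl4 313 to 3082. Reads are not independent molecules, and libraries pool mice, so p-values measure the spread between pools.

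Groups came from the sample labels. Values were taken as log2(RPKM + 0.5), genes with at least 1 RPKM in at least 2 libraries were kept (11979), and all 11 libraries were fitted together in limma 3.58.1 (R 4.3.3; empirical Bayes, 7 residual and 3.89 prior degrees of freedom), with 4 contrasts and their interaction and Benjamini-Hochberg adjustment over all tested genes. Differences are thus log2FC on the log2(RPKM + 0.5) scale, which understates low genes. No 2 libraries of the same group agreed within sampling noise. The family members, the gene lists and the tests were chosen with earlier results of these data known. All members were named, and, per list, the 3 genes with the largest mean change among those called in both wound comparisons in the same direction, together with Plod2, Bmp1, Postn, Fn1, Eln, Col1a1, Col3a1 and Atp7a, and the 3 genes most like each member. Ccs, Mt2, Fbln5, Tgm2, Col4a5 and the markers Cd3e, Cd68, Krt6a and Krt14 were named after their values were seen. Ltbp4 and, among the immune markers, Itgam (the gene for CD11b) were not found under those symbols in the table used here.

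The labels give replicate numbers across groups, without saying what they share. Deviations from the group means of same-numbered libraries correlated at 0.19, 0.12 and 0.11 between WT 5dw and WT NS, and at 0.55, 0.42 and 0.33 between Act NS and WT NS. They correlated at 0.02 and 0.14 for the Act wound comparison, and at −0.08 and 0.19 between the 5dw groups. The numbers were hence taken to pair the libraries in the first pair of comparisons. The main fit did not use this pairing, so its SEs, intervals and p-values are unpaired. Only the replicate block, an alternative, used it. In total, 20 alternatives were run, including another pseudocount (0.1 or 1), no filter, a minimum of 5 RPKM, median-ratio scaling, voom on recovered reads, the replicate block and leaving out each library. Gene positions and the copper-binding stretches were read from GENCODE M21. The copper-binding stretch of Lox is not reported here.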

Additional observations from a re-analysis of the deposited data

How the results depend on the processing

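Lox, Loxl2, Loxl3 and Loxl4 kept their direction and their call in both wound comparisons under all 20 alternatives, and no member was called between genotypes or in the interaction under any of them. With the replicate block, which uses the pairing of library numbers, the WT log2FC was 2.29 for Lox, 0.02 for Loxl1, 1.09 for Loxl2, 1.35 for Loxl3 and −2.31 for Loxl4. Both WT groups hold the same library numbers, so these values could not differ from the main fit and are no check of it. The block could change the calls, and it changed no call of a member. Without both NS libraries numbered 1, which stand apart on the second principal component, the calls also remained. Values that changed sign were uncalled ones. Leaving out each library in turn, Loxl1 ranged from −0.19 (without the second WT NS library) to 0.16 in WT wounds, with −0.01 and 0.00 without the second and the third WT 5dw library, and from −0.03 (without the third Act 5dw library) to 0.44 in Act wounds. For Act against WT in NS, Loxl3 ranged from −0.19 to 0.09 (0.07, 0.03 and 0.09 were positive) and Loxl4 from −0.13 to 0.03 (0.02 and 0.03). In 5dw, Loxl1 ranged from −0.39 to 0.09, Loxl2 from −0.20 to 0.07 (0.01 and 0.07), Loxl3 from −0.45 to 0.14 and Loxl4 from −0.15 to 0.21 (−0.01 and −0.15). The other genotype values kept their sign but also moved. Lox ranged from 0.07 to 0.23 in NS and from 0.02 to 0.20 in 5dw. In NS, Loxl1 ranged from −0.54 to −0.20 and Loxl2 from −0.21 to −0.08. Over all alternatives, Lox in NS reached 0.31. The interaction ranged from −0.15 to 0.04 for Lox (0.04, 0.03 and 0.02), from −0.05 to 0.42 for Loxl1, from −0.06 to 0.21 for Loxl2, from −0.43 to 0.16 for Loxl3 (0.03 and 0.16) and from −0.11 to 0.26 for Loxl4. Under median-ratio scaling the genotype difference in NS became 0.10 for Loxl3 and 0.08 for Loxl4, and the interaction −0.04 for Loxl2 and −0.03 for Loxl4. Among the pathway lists, this scaling ended the calls of Fbln5 in both genotypes and of Atp7a, Ccs and Tgm2 in WT mice, and the matrix partners then had 5 up-regulated genes in Act mice against 2. Without both NS libraries numbered 1, the NS difference of Loxl3 was 0.12 and the interaction of Loxl2 −0.01. The causes of these shifts were not tested. Fits on only the groups compared give no interaction. Loxl4 had the lowest depth, with 313 to 3082 reads per library.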
